A study of Mus musculus with 15 samples.

Results

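Complex I of the respiratory chain is built from subunits encoded in the nucleus and in the mitochondrial genome, and the nuclear-encoded subunit genes are described here in the mouse left ventricle. They were taken as every protein-coding gene whose symbol starts with Ndufa, Ndufb, Ndufc, Ndufs or Ndufv, without the assembly factors named Ndufaf. This gave 38 genes of the 55487 in the deposited tables. All 38 had enough counts to be tested. Another 5 genes with such symbols are not protein-coding in GENCODE M21 and were left out: the processed pseudogenes Ndufab1-ps, Ndufs6b, Ndufb4c and Ndufa11b, and Ndufb1-ps, which GENCODE lists as a non-coding RNA.

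The study followed the heart in a mouse model of chronic kidney disease. RNA was sequenced from male mice aged 225 days, from the midline of the left ventricular free wall. The 7 kidney disease animals carry a Col4a5 mutation, labelled a knockdown in the sample records and a collagen IV knockout in the study's design, and the labels place their kidney disease at the equivalent of human stage 4 to 5. The 8 controls are wild-type animals, with which the mutants were housed as littermates on normal chow. The labels name isoflurane in one field and ketamine with xylazine in another for every animal of both groups. Col4a5 RNA was also low in the hearts of the mutants, so effects of the kidney disease and of less Col4a5 in the heart itself cannot be told apart in this design.

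Complex I is the entry point for electrons from NADH. Its N module oxidises NADH at a flavin and passes electrons along iron-sulfur clusters, its Q module hands them to ubiquinone, and its membrane arm pumps protons. The core subunits carry out this chemistry, and those of the membrane arm are encoded in the mitochondrial genome as the mt-Nd genes, while the many accessory subunits, all nuclear, stabilise and assemble the complex. The heart, which works almost wholly on oxidative metabolism, is among the tissues richest in it.

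The 15 libraries held 48748379 to 65519279 counts each. Col4a5 itself ranged from 9.19 to 16.2 in the diseased animals and from 50.4 to 65.7 in the wild-type animals, in CPM (counts relative to the size of the library, scaled by TMM, a correction for library composition). This was a log2 change of -2.08 (SE 0.11), so the libraries matched their labels. Ventricular cardiomyocyte markers were present in every library, and the 11 of them summed to 124200 to 132000 CPM in the wild-type animals and 107300 to 126400 CPM in the diseased ones. None of these 11 passed the test. Macrophage markers summed to 292.9 to 359.8 CPM in the wild-type animals and 413.7 to 589.3 CPM in the diseased ones, and 9 of 10 rose. Fibroblast markers summed to 808.9 to 1042 CPM and 971.7 to 1250.0 CPM in the same order, and 5 of 7 rose. In whole tissue, fewer cells of a type and less RNA per cell cannot be told apart.

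A pair of libraries stood apart for these genes. Kidney disease 6 had the highest value of all 15 libraries for 37 of the 38 subunit genes, against 20.8% of all genes tested. Wild type 7 had the lowest value for 38 of 38, against 18.5% of all genes. The median subunit gene lay 0.56 log2 units above its mean over the libraries in kidney disease 6 and fell by 0.44 below it in wild type 7, while the other 13 libraries had medians between -0.17 and 0.18. The main results for the subunit genes are therefore given with and without these animals.

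**Figure D1:**
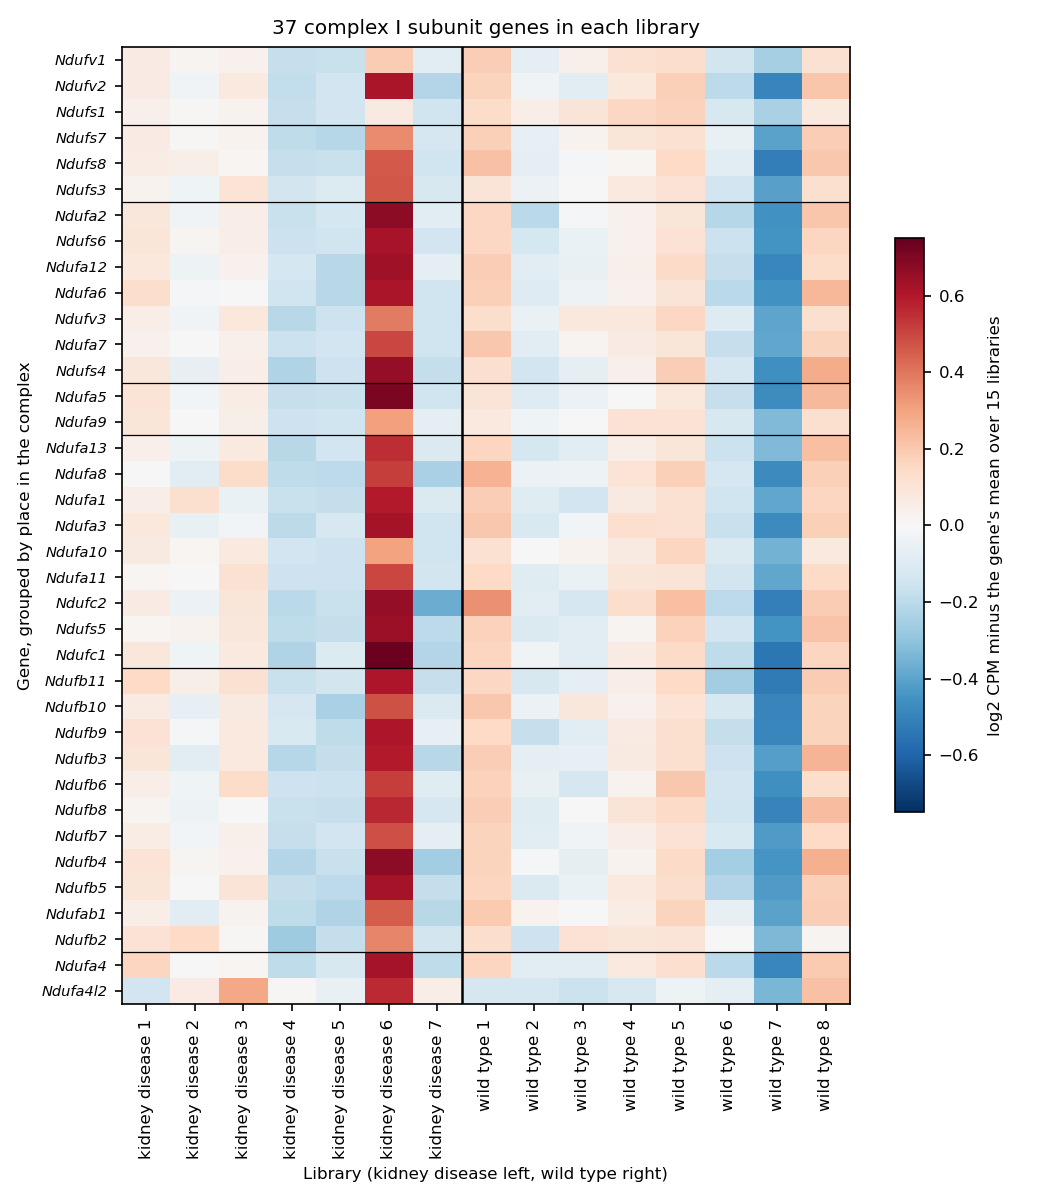
Heat map of 37 of the 38 nuclear-encoded complex I subunit genes (rows, grouped by place in the complex from the core N module at the top to Ndufa4 and Ndufa4l2 at the bottom) in the 15 libraries (columns, kidney disease left of the line). Colour gives log2 CPM minus the gene's mean over the libraries. Kidney disease 6 is high and wild type 7 low in nearly every row, with medians of 0.56 and -0.44 over the 38 genes.

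None of the 38 subunit genes passed the test for a change in kidney disease. By edgeR's quasi-likelihood test with Benjamini-Hochberg adjustment over all genes, 0 of 38 were called in either direction, where 0.811% of the 20718 genes tested were called higher and 0.473% lower (168 and 98 genes). With scaling to the library total alone these became 435 and 61 genes, which takes the share of calls that were higher from 63.2% to 87.7%, and 0 subunit genes were called then too. DESeq2 called 0 of 38, against 3.68% of the 17403 genes to which it gave an adjusted p. With limma-voom 0 of 38 were called, against 1.22% of the genes tested. At an unadjusted p of 0.05 edgeR picked out 1 of the 38, Ndufa4l2, against 12.4% of all genes. The values of the groups overlapped in all 38, as they did in all but 0.565% of the genes tested.

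The values were close enough to set limits on a change. The log2 changes ran from -0.090 to 0.22 with a median of 0.056, beside a median of 0.0042 over all genes tested, and 31 were above 0 and 7 below. Their standard errors ran from 0.068 to 0.14. Every one of the 38 confidence intervals, at 95%, lay within 0.5 log2 units of no change, with the lowest bound at -0.27 for Ndufc2 and the highest at 0.42 for Ndufa4l2, and 37 of them held 0.

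The small excess of values above 0 depended on kidney disease 6. Without it the median was -0.050, and 35 of the 38 genes were below 0. Without wild type 7 the median was 0.0031 and 19 were above 0. Without both animals 37 were below 0 and 1 above, with a median of -0.10 and standard errors of 0.055 to 0.090. None was called in any of these fits, and the smallest adjusted p without both animals was 0.12, for Ndufab1. The direction of the median thus turned with these animals. They were picked from the values of these same genes. Leaving out the highest diseased or the lowest wild-type animal lowers the log2 changes and narrows the spread by construction. The fits without them therefore show dependence on these animals and not a fall in kidney disease.

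**Figure D2:**
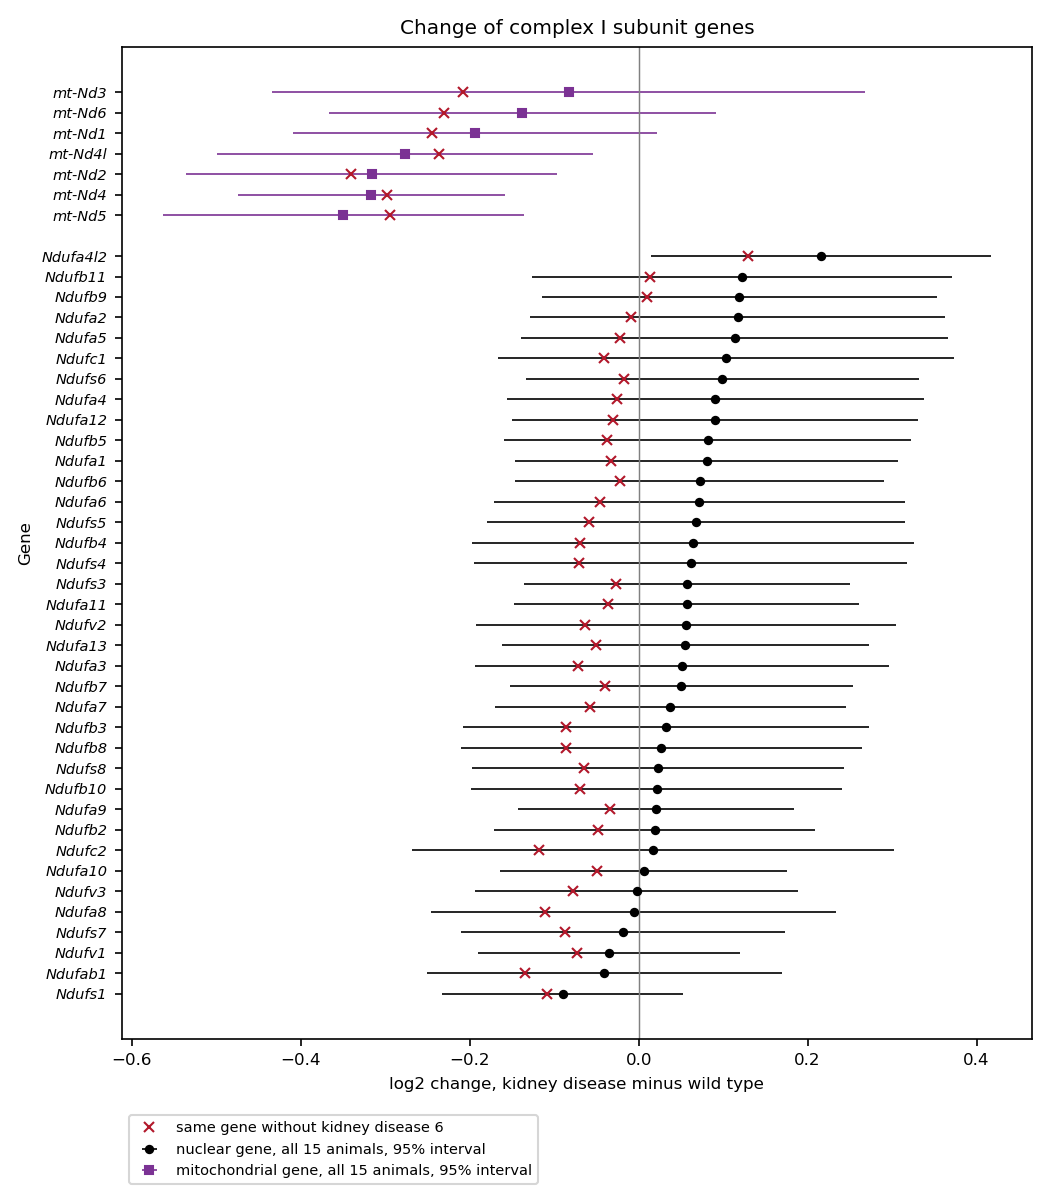
Log2 change between kidney disease (n = 7) and wild type (n = 8) for 37 of the nuclear-encoded subunit genes (black) and each mitochondrially encoded one (purple squares), with 95% confidence intervals from edgeR. Red crosses give the same change without kidney disease 6, where 34 of the 37 nuclear genes shown lie below 0.

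The core of the N module is made by 3 nuclear genes. Ndufv1, which encodes the subunit that binds the flavin and NADH, was at 611 to 789 CPM in the diseased animals (median 699.8) and at 581 to 785 CPM in the controls (median 728). Ndufv2, whose product carries a further iron-sulfur cluster, was at 316 to 563 CPM (median 362) and 262 to 426 CPM (median 376). Ndufs1, the largest subunit of the complex, which holds iron-sulfur clusters on the way to the Q module, was at 453 to 534 CPM (median 513) and 432 to 574 CPM (median 542). The ranges of the groups overlapped for all 3. For Ndufv1 and Ndufv2 kidney disease 6, at 789 and 563 CPM, lay above every wild-type animal. In the wild-type group wild type 7 gave the lowest value for all 3 genes. The log2 changes were -0.035 for Ndufv1 (SE 0.074), 0.056 for Ndufv2 (SE 0.12) and -0.090 for Ndufs1 (SE 0.068), with adjusted p of 0.91, 0.91 and 0.67 by edgeR.

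Ndufs1 was the exception among the 38 in its spread. Its highest value was in wild type 5 rather than kidney disease 6, and kidney disease 6 was the single diseased animal of 7 that lay above the wild-type mean. It lay only 0.065 log2 units above its mean over the libraries in kidney disease 6, the smallest such value of the set, and it had the smallest standard error. Its log2 change was -0.11 without kidney disease 6 and -0.15 without both animals, with an adjusted p of 0.21 in the latter fit. It also has the longest annotated exons of the set, 8086 bases.

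Core genes of the Q module gave the same picture of overlapping groups. Ndufs7, which carries the last iron-sulfur cluster before ubiquinone, spanned 368 to 545 CPM in the diseased group (median 428) and 322 to 485 CPM in the wild-type group (median 444). The diseased median lay below the wild-type one while the highest value of all came from the diseased kidney disease 6. Ndufs3, a subunit that joins the Q module early in assembly, was at 195 to 296 CPM (median 210.0) and 162 to 233 CPM (median 219.7). Ndufs8, which holds a further pair of clusters, was at 201.1 to 312 CPM (median 228) and 158 to 264 CPM (median 227). The log2 changes of these genes were between -0.019 and 0.058, with standard errors of 0.092 to 0.11 and adjusted p of at least 0.88.

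The accessory subunits of the N module showed slightly higher means in kidney disease and no calls. Their 7 genes had a median log2 change of 0.072, and Ndufa2, an accessory protein with a thioredoxin-like fold, had the largest at 0.12 (SE 0.12). Ndufs4 and Ndufs6, which act late in assembly when the N module is attached and which cause complex I deficiency when mutated, were at 0.062 (SE 0.12) and 0.099 (SE 0.11). Ndufa6, which holds an acyl carrier protein on the complex, was at 0.072, and Ndufa12, a relative of the assembly factor Ndufaf2, at 0.090. Ndufa7 was at 0.038 and Ndufv3 at -0.0022. Without kidney disease 6 all 7 were below 0, from -0.0095 for Ndufa2 to -0.077 for Ndufv3. The 2 accessory genes at the Q module were Ndufa5 at 0.11 (SE 0.12) and Ndufa9, which binds a nicotinamide nucleotide at the junction with the membrane arm, at 0.020 (SE 0.078).

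In the proximal membrane arm 8 of 9 accessory genes were above 0, with a median log2 change of 0.055. Ndufc1 was at 0.10 (SE 0.13) and the X-linked Ndufa1 at 0.080. Ndufs5 and Ndufa8, which have paired cysteine motifs and face the intermembrane space, were at 0.068 and -0.0058, and Ndufa11, of the Tim17 family fold, at 0.057. Ndufa13, also studied as the cell-death protein GRIM-19, was at 0.055 and Ndufa3 at 0.052. Ndufc2 was at 0.018 with the widest standard error of the set, 0.14. Ndufa10, which has a nucleoside kinase fold, was at 0.0059. Without kidney disease 6 all 9 were below 0.

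The distal membrane arm holds 11 of the genes, of which 10 were above 0, with a median of 0.050. Ndufb9, whose product holds an acyl carrier protein at the tip of the arm, and the X-linked Ndufb11 had the smallest p in the upward direction after Ndufa4l2. Ndufb9 was at 198.2 to 344 CPM in the diseased animals (median 225) and 161 to 254 CPM in the controls (median 225). Ndufb11 was at 272 to 469 CPM (median 317) and 213 to 350.2 CPM (median 306). For both genes the medians of the groups were nearly equal, and the top of the diseased range was set by kidney disease 6, without which it ended at 244 and 341 CPM. Both had a log2 change of 0.12 (SE 0.11 and 0.12, adjusted p 0.75 and 0.76 by edgeR), and without kidney disease 6 these were 0.0099 and 0.013. Ndufb7 and Ndufb10, which face the intermembrane space, were at 0.050 and 0.021. Of the small single-helix and other subunits of this arm, Ndufb5 was at 0.082, Ndufb6 at 0.072, Ndufb4 at 0.064, Ndufb3 at 0.033, Ndufb8 at 0.027 and Ndufb2 at 0.019.

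Ndufab1 encodes the mitochondrial acyl carrier protein, which is both a subunit of complex I and a carrier in mitochondrial fatty acid synthesis. Its level was 109.5 to 175 CPM in the diseased group (median 121) and 97.0 to 147 CPM in the wild-type group (median 132). Its log2 change was -0.041 (SE 0.10, adjusted p 0.93), and of the 38 genes it was furthest below 0 without kidney disease 6 (-0.13) and without both animals (-0.19). The groups overlapped here as well.

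Of the genes outside the canonical complex, Ndufa4 and Ndufa4l2, the first encodes a protein now assigned to complex IV and the second its hypoxia-inducible paralogue. Ndufa4 was at 367 to 645 CPM in the diseased animals (median 420.1) and 299 to 480.1 CPM in the controls (median 419). Ndufa4l2 was far scarcer, at 12.9 to 21.0 CPM (median 14.8) and 11.3 to 16.7 CPM (median 13.1). For Ndufa4l2, 6 of 7 diseased animals lay above the wild-type mean, but 5 of the 7 lay within the wild-type range, and only kidney disease 3 and 6 were above wild type 8. Its log2 change of 0.22 (SE 0.096) had an adjusted p of 0.36 by edgeR. The value was 0.13 without kidney disease 6 and 0.096 without both animals. Ndufa4 had a log2 change of 0.091 (SE 0.12).

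The mitochondrially encoded subunits gave other values. All 7 mt-Nd genes were below 0, with a median log2 change of -0.28, although mt-Nd3 turned above 0 when the libraries were split by their most counted gene, as described further on (0.018 in those led by mt-Co1 and 0.040 in those led by Ttn). mt-Nd4, a core subunit of the proton-pumping arm, was at 7005 to 8838 CPM in the diseased animals (median 7381) and 8313 to 10796 CPM in the controls (median 9735). It fell by 0.32 (SE 0.076, adjusted p 0.044 by edgeR), with groups that overlapped only between 8313 and 8838 CPM. mt-Nd5 (-0.35, SE 0.10), mt-Nd2 (-0.32, SE 0.11) and mt-Nd4l (-0.28, SE 0.11) did not pass, with adjusted p of 0.11, 0.17 and 0.26. mt-Nd1 was at -0.19, mt-Nd6 at -0.14 and mt-Nd3 at -0.083. Without both kidney disease 6 and wild type 7 the median of the 7 was -0.29. The call of mt-Nd4 was kept in 4 of 15 fits that each left out 1 animal, in which kidney disease 1, wild type 6, wild type 7 or wild type 8 was the animal left out. Its adjusted p was at most 0.095 in the others. mt-Nd5 passed in 1 of these 15 fits, the one without wild type 8.

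As a share of all counts, the 38 nuclear genes made up 0.968% ± 0.145 (SD, n = 7) in kidney disease and 0.905% ± 0.0853 (SD, n = 8) in wild type. Without kidney disease 6 the diseased share was 0.915% ± 0.0370 (SD, n = 6). The mt-Nd genes made up 4.55% ± 0.347 and 5.27% ± 0.421. In the libraries that stood apart for the nuclear genes the median mt-Nd gene lay at -0.019 in kidney disease 6 and -0.10 in wild type 7, but single genes went both ways. Kidney disease 6 was the highest diseased animal for mt-Nd1 (19227 CPM), mt-Nd3 (148 CPM) and mt-Nd6 (1043 CPM) and the lowest for mt-Nd4 (7005 CPM) and mt-Nd5 (10644 CPM). Wild type 7 was the lowest wild-type animal for mt-Nd1 (13864 CPM), mt-Nd3 (72.0 CPM) and mt-Nd4 (8313 CPM). No test of the difference between the nuclear and mitochondrial sets was made.

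**Figure D3:**
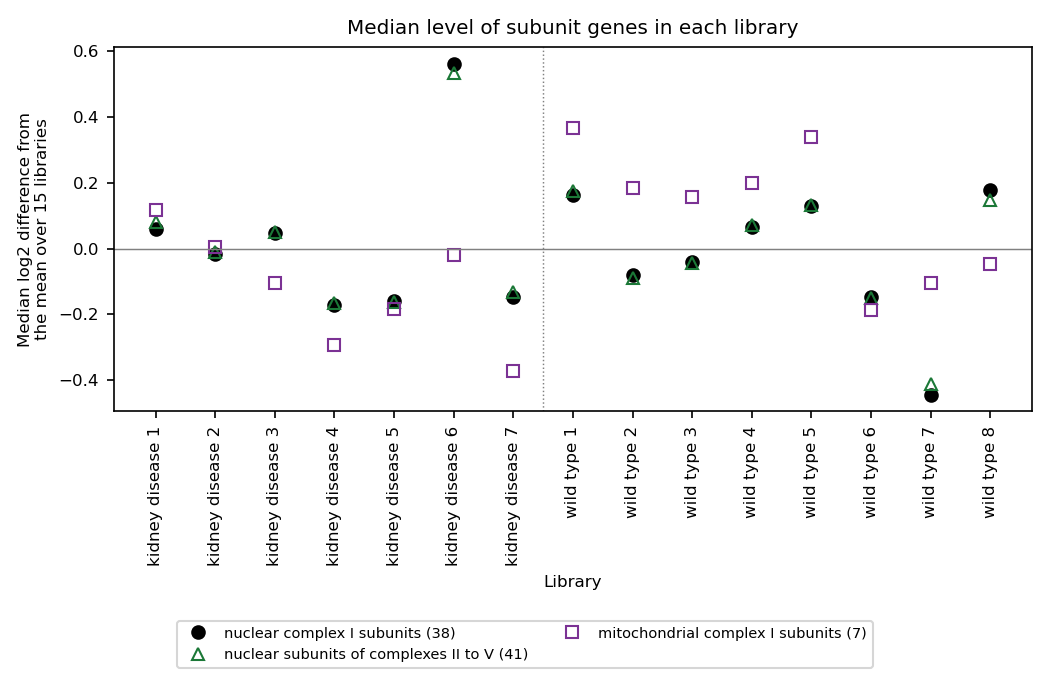
Median log2 difference from the mean over the 15 libraries, in each library, for the 38 nuclear complex I subunit genes (filled circles), the 41 nuclear subunits of complexes II to V (triangles) and the 7 mt-Nd genes (squares), with kidney disease left of the dotted line. Circles and triangles lie together, at 0.56 and 0.53 in kidney disease 6, while the squares, medians of genes that went both ways, are at -0.019 there and at -0.10 in wild type 7.

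No gene among those whose products assemble complex I passed either. Of 22 assembly factors listed, 21 were found and tested, and 0 were called. Their median log2 change was -0.035, with 15 below 0, and the smallest p belonged to Dmac2, a distal membrane arm assembly factor, at -0.16 (SE 0.072, adjusted p 0.36). Assembly factors moved less than the subunits in the libraries that stood apart, with medians of 0.33 in kidney disease 6 and -0.37 in wild type 7. Without both of these animals the median log2 change of the assembly factors was -0.12, with 1 of 21 above 0.

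The other respiratory complexes resembled complex I. None of 41 nuclear subunit genes of complexes II to V was called. Their median log2 change was 0.051 with 33 above 0, and without kidney disease 6 it was -0.042. Without both kidney disease 6 and wild type 7 it was -0.088, with 0 of 41 above 0. By complex the medians were -0.0070 for the 4 genes of complex II, 0.067 for 9 of complex III, 0.072 for 12 of complex IV and 0.056 for 16 of complex V. The smallest p was that of Sdha, the flavoprotein of succinate dehydrogenase, at -0.14 (SE 0.063, adjusted p 0.37). Kidney disease 6 was highest for 38 of the 41 and wild type 7 lowest for 40. The pattern in these libraries was thus shared by the nuclear genes of the whole respiratory chain.

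The subunit genes moved as a block from animal to animal. Within groups, a single axis held 95.8% of the variance of the 38 genes, and 87.9% of it when kidney disease 6 and wild type 7 were left out. For the subunits of complexes II to V it held 95.5%, for the mt-Nd genes 74.4% and for the 8498 genes at 10 CPM or more 44.2%. These figures are descriptions over genes that share the same libraries. All 38 genes lay above their own mean in kidney disease 6 and in wild type 8, and 37 did so in kidney disease 1 and wild type 1, 4 and 5. The number was 36 in kidney disease 3, 15 in kidney disease 2, 12 in wild type 3 and 3 in wild type 2. By contrast 0 or 1 lay above their own mean in kidney disease 4, 5 and 7 and wild type 6 and 7. These last 5 are the libraries in which the most counted gene is the titin gene Ttn; in the other 10 it is mt-Co1, a complex IV gene of the mitochondrial genome. Within the 10 libraries led by mt-Co1 the median log2 change of the subunit genes was 0.11, and within the 5 led by Ttn it was 0.12, with 0 called in each. Each split holds one of the animals that stood apart. Without kidney disease 6 the former median was -0.033, with 5 of 38 above 0, and without wild type 7 the latter was -0.0055, with 18 of 38 above 0. The latter fit has wild type 6 as its only control, which is assumed to vary like the diseased animals.

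Kidney disease 6 and wild type 7 stood apart more in genes with few annotated exon bases than in genes with many. This held among the subunit genes and among all genes. Over all genes at 10 CPM or more, the median in kidney disease 6 was 0.51 for the 214 genes with up to 1000 exon bases and -0.094 for the 4304 with over 5000. In wild type 7 these medians were -0.40 and -0.0071. Of the 38 subunit genes, 24 have at most 2000 exon bases, but those in the classes with more stood apart as well. The 5 with 3000 to 5000 bases had a median of 0.48 in kidney disease 6, against 0.083 for the 2275 genes of that class. Exon bases are the union over all annotated transcripts of a gene. The longest protein-coding transcript of each of these 5 has 623 (Ndufb7) to 2142 bases (Ndufb8). They are thus not long transcripts, and values by transcript length were not compared. Across the 38 genes, exon length and the value in kidney disease 6 had a Pearson r of -0.55 and a Spearman rho of -0.48. With wild type 7 these were 0.44 and 0.37, and with the log2 change -0.53 and -0.48, as descriptions over genes from the same libraries. After a correction of the log2 values for length, fitted in each library, the medians were 0.36 in kidney disease 6 and -0.31 in wild type 7. In a separate fit of the counts with a gene length offset, the median log2 change was 0.0028 with 21 of 38 above 0.

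**Figure D4:**
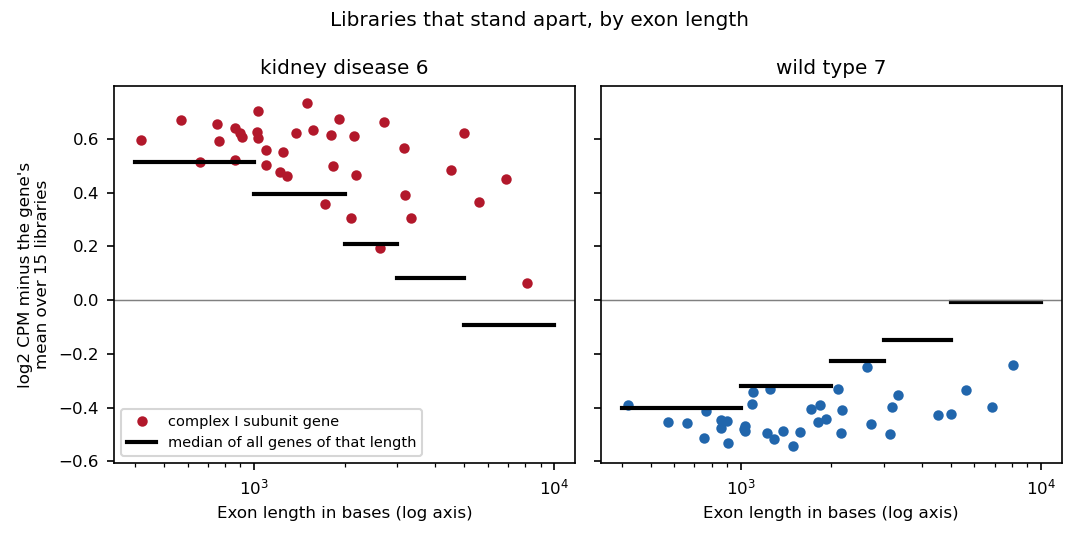
Log2 CPM minus the gene's mean over the 15 libraries against annotated exon length (log axis) in kidney disease 6 (left) and wild type 7 (right). Each point is 1 of 37 subunit genes, and each bar is the median of all genes at 10 CPM or more in that class of length, the last bar standing for all longer than 5000 bases; subunit genes mostly lie beyond the bars, above them on the left and below them on the right.

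Other measures also differed in kidney disease 6. Its summed macrophage markers, 589.3 CPM, and summed adipocyte markers, 489.9 CPM, were the highest of its group, although its median adipocyte marker lay below the mean over the libraries, at -1.33 log2 units over all 8 markers and -2.84 over the 5 with enough counts to be tested. Its summed ventricular cardiomyocyte markers, 107300 CPM, were the lowest, although the median such marker lay 0.11 log2 units above its mean over the libraries and kidney disease 6 was the highest of all 15 libraries for 5 of the 11. Its 5 atrial cardiomyocyte markers summed to 31.66 CPM, where the diseased median was 1146 CPM. The atrial sum was also low in a wild-type library that did not stand apart for the subunit genes, wild type 5, at 34.45 CPM. In wild type 7 the macrophage sum was the lowest of the wild-type group, 292.9 CPM, and the atrial sum the highest, 1401 CPM. Its adipocyte sum was also the lowest of that group, 231.6 CPM, but its median adipocyte marker lay above the mean over the libraries. That median was 0.17 log2 units over all 8 markers and 0.39 over the 5 with enough counts to be tested. No marker was at 0 in every library. The part of these cell markers in the subunit values was not tested.

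Expression per length spanned a ratio of 123 between the highest and the lowest of the 37 genes whose levels are given. Of these Ndufb11 was highest, at 359 ± 76.1 TMM-scaled CPM per kilobase of exon in kidney disease (SD, n = 7) and 330.03 ± 53.0 in wild type (SD, n = 8), with a mean of 344 over all animals, followed by Ndufb10 at 311. Ndufa13, Ndufa2 and Ndufa4 came next, at 308 to 310.5. At the other end stood Ndufab1 at 18.8, Ndufa4l2 at 13.2 and Ndufb2 at 2.80. Most genes lay between, with a median of 131. Of 36 pairs of neighbours in this order only 5 differed by more than the larger of their SDs, so most places in the order are not resolved. The deposited FPKM values, which count per length without TMM scaling, gave nearly the same order (Spearman rho 1.00 across genes) and the same ratio, 123. They rest on the same counts and exon lengths, so this is no independent check of the order. Ndufb2 and Ndufab1 have 5628 and 6883 annotated exon bases, a union that takes in long transcripts of these loci, and a longer union lowers a level per length. Without Ndufb2 and Ndufa4l2 the ratio was 18.3.

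**Figure D5:**
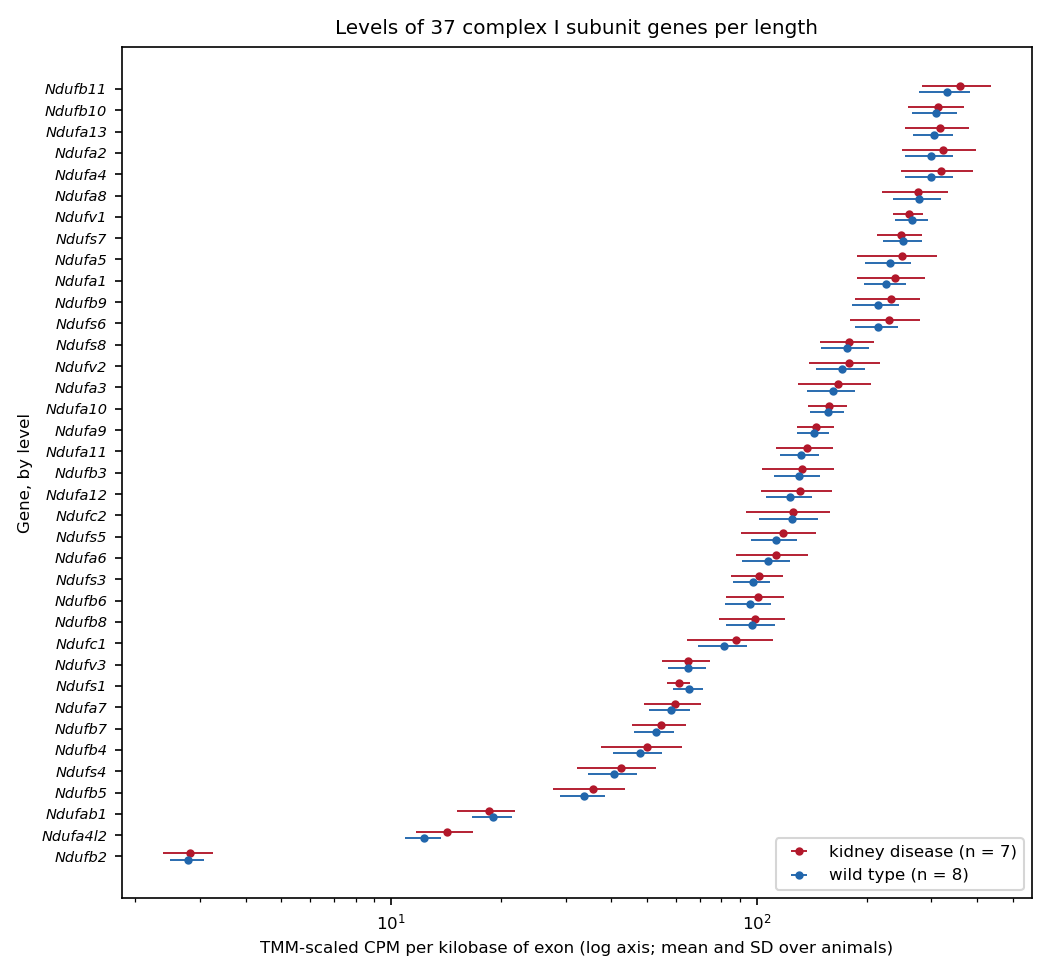
Level of each of 37 subunit genes per length, as TMM-scaled CPM per kilobase of exon (log axis), mean and SD over animals for kidney disease (n = 7, red) and wild type (n = 8, blue). The groups lie on top of each other at every level, from Ndufb11 near 344 to Ndufb2 at 2.80.

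The promoters of the subunit genes were read for 4 motifs of factors known to act on respiratory genes. RefSeq windows of 250 bases before the start site (GRCm38.p6) were searched for 33 of the 38, on both strands. Windows from the chromosome that holds Ndufa2 were left out, for the subunit genes and for the genes set beside them. Ndufa2 was therefore not searched, and the comparison does not cover the whole genome. GCGCNTGCG, a part of the site of nuclear respiratory factor 1 (NRF1), was present in 8 of 33, or 24.2%, against 5.88% of the windows of 27025 genes: Ndufa5, Ndufa8, Ndufa11, Ndufa12, Ndufb4, Ndufb10, Ndufs5 and Ndufs6. AAGGTCA, part of the site of estrogen-related receptors, was present in 9.09% (3 genes, Ndufb2, Ndufb4 and Ndufs5) against 4.7%. CCGGAAG, read by ETS factors such as GABP, was present in 9.09% (Ndufb6, Ndufb7 and Ndufs3) against 7.83%, and AANATGGCG, read by YY1, in 6.06% (2 genes, Ndufa7 and Ndufb11) against 1.29%. In all 14 of 33 held at least 1 of the 4. A match describes these letters only, and no binding was measured. The genes set beside the subunit genes were not limited to those expressed in the heart. The part of these factors in the shared movement of the subunit genes was not tested.

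The following 3 windows were chosen after the matches were seen: Ndufb4 holds the most matches, Ndufs5 is the only other window that matches both the NRF1 and the estrogen-related receptor letters, and Ndufa11 has overlapping matches. They are written 5′ to 3′ on the strand of the gene and end at the base before the start site, with matches in capitals. Ndufb4 (chr16:37654369-37654618, minus strand) has NRF1 matches starting 190, 78 and 21 bases before the start and an estrogen-related receptor match at 55. Ndufs5 (chr4:123718187-123718436, minus strand) has one of each, at 97 and 228. Ndufa11 (chr17:56717512-56717761, plus strand) has 2 overlapping NRF1 matches, on opposite strands, starting 60 and 59 bases before.
Ndufb4: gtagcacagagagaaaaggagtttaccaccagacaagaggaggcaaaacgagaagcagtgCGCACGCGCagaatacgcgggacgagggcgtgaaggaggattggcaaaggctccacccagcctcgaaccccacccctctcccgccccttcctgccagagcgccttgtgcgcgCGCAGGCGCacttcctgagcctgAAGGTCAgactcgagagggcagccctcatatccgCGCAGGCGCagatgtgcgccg
Ndufs5: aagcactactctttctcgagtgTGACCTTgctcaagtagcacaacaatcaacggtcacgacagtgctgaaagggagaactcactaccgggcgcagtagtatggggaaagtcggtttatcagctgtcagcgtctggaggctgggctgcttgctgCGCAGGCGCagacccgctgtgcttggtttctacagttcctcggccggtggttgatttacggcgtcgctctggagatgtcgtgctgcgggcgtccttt
Ndufa11: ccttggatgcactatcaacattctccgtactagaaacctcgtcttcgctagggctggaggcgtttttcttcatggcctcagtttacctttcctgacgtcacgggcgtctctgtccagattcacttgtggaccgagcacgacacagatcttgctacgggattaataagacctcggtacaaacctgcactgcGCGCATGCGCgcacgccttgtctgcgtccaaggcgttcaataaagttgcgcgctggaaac
These 3 genes had log2 changes of 0.064, 0.068 and 0.057, all close to the median of the set.

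Reads of some subunit genes can be shared with other loci. A near-identical copy elsewhere in the annotation, at 95% identity or more over at least 150 bases, was found for 8 of 38: Ndufa12, Ndufab1, Ndufb3, Ndufb4, Ndufb11, Ndufs3, Ndufs5 and Ndufs6. The counts given to the copies came to 17.6% of those of Ndufab1 and 9.07% of those of Ndufs5, and less for the other 6. Of the 38 genes, 17 share exon bases with another gene, 6 of them over more than 10% of their length: Ndufb6 with Smim27 (39.0%), Ndufa13 with Tssk6 (30.0%), Ndufb9 with Gm49356 (19.5%), Ndufb11 with Rbm10 (12.9%), Ndufb5 with Mrpl47 (12.3%) and Ndufa2 with Tmco6 (11.5%). Gm49356 lies on the same strand as Ndufb9, and the other 5 partners lie on the opposite strand. Without the strand setting of the counting, reads of the opposite-strand partners cannot be told apart, and that setting does not separate Ndufb9 from Gm49356. Ndufb1-ps, which RefSeq lists as the protein-coding gene Ndufb1, was at 90.8 ± 24.2 CPM (SD, n = 7) and 85.8 ± 13.4 CPM (SD, n = 8), a log2 change of 0.081 (SE 0.13), and so lay among the values of the 38.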

How the data were processed

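For each of the 15 libraries the authors deposited raw counts, CPM and FPKM per gene, per the file headers. The deposited counts were used for every test, and the deposited CPM values, scaled to the library total, were not used further. The deposited FPKM values were set beside the order of levels. Per the submitters' processing notes the build was GRCm38, and the tools named are featureCounts 2.0.3, Subread, STAR 2.7.9a and bcl2fastq. The strand setting is not given in the sources used here. Libraries were made from total RNA after ribosomal RNA removal (KAPA RiboErase), per the labels' protocols, with an RNA integrity number of at least 8 in every sample.

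Symbols, types, exon lengths and positions came from GENCODE M21. Genes with enough counts (filterByExpr, minimum count 10) were kept, counts were scaled by TMM, and groups were compared in R 4.3.3 by the quasi-likelihood test of edgeR 4.0.16, with p-values adjusted by Benjamini-Hochberg across all 20718 genes and called at 0.05. DESeq2 1.42.0, limma-voom (limma 3.58.1), other scalings and filters, a gene length offset, the split by most counted gene, a replicate block and leaving out each animal were alternatives. Removal of kidney disease 6 and wild type 7 together, the length correction of values per library, and the split by most counted gene without these animals, were added after seeing the data. Animals are the replicates. Over 49 pairs of libraries within groups chi-square divided by its degrees of freedom was at least 9.16, so no library was counted as a repeat.

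The genes, lists and tests were chosen with earlier results of these data known. One subunit gene enters the counts and medians over the 38 and is not reported singly here. Given with values in each group were core subunits, the 3 subunit genes of smallest p among those above 0 and the 3 among those below, those with the highest and lowest level per length among the 37 reported, and Ndufa4 and Ndufa4l2. Other subunit genes were given with their log2 change.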

Additional observations from a re-analysis of the deposited data

Results flagged for a closer look

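Within each group, single animals far from the rest were sought for 37 subunit genes and for each of the 7 mt-Nd genes, 88 groups of values in all. For each such value the gap to the nearest other animal was divided by the range of the group. A value was picked out when this share was above Dixon's critical value for the size of the group. Chance picks out about 1 in 20 such groups, or 4.4 here, and 31 values were found. The groups are not independent, since the genes share their libraries.

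Kidney disease 6 accounted for 30 of them. It was the highest of the 7 diseased animals by a wide gap, with these TMM-scaled CPM values: Ndufb11 468.7, Ndufb10 519.9, Ndufa13 563.4, Ndufa2 278.1, Ndufa4 645.3, Ndufs7 545.4, Ndufa5 395.7, Ndufa1 144.8, Ndufb9 344.1, Ndufs6 301.1, Ndufs8 311.7, Ndufv2 563.5, Ndufa3 254.6, Ndufa11 205.9, Ndufb3 149.1, Ndufa12 305.4, Ndufc2 145.8, Ndufs5 152.1, Ndufa6 298.3, Ndufs3 296.0, Ndufb6 91.2, Ndufb8 450.5, Ndufc1 205.9, Ndufv3 268.8, Ndufa7 150.9, Ndufb7 336.7, Ndufb4 146.6, Ndufs4 175.3, Ndufb5 262.5, Ndufab1 175.0. The nearest other diseased animal was, for example, at 341.4 CPM for Ndufb11 and at 103.3 CPM for Ndufs5. The remaining value was that of Ndufs7 in wild type 7, at 321.9 CPM, where the next wild-type animal was at 408.1 CPM.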

How the results depend on the processing

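Across all genes, edgeR called 266, and this count moved by more than 1.5 times under several alternatives. It was 496 with scaling to the library total, 640 with DESeq2 and 480 with kidney disease 6 and wild type 7 both removed. Within the libraries led by mt-Co1 it was 86, and within those led by Ttn 3, or 78 without kidney disease 6 in the former and 80 without wild type 7 in the latter, where wild type 6 is the only control. Leaving out 1 animal at a time gave 97 (without wild type 5) to 388 (without wild type 7). It was at most 171 without any one of kidney disease 1 to 6 or wild type 1 and 3 to 6, and 178 to 388 when the animal left out was wild type 2, 7 or 8 or kidney disease 7. The smaller sets hold fewer animals, and for the other alternatives the cause was not tested.

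No complex I subunit gene was called under any of the alternatives run. The median log2 change of the 38 genes ran from -0.050 without kidney disease 6 to 0.088 without kidney disease 4 over the fits that left out 1 animal, and it was -0.10 with kidney disease 6 and wild type 7 both removed. It was also below 0 within the libraries led by mt-Co1 without kidney disease 6 (-0.033) and within those led by Ttn without wild type 7 (-0.0055), and above 0 under all other alternatives run.

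Many single genes lay close to 0 and changed sign without being called. With both animals removed the log2 changes that turned were -0.18 for Ndufc2, -0.14 for Ndufb3 and Ndufb8, -0.13 for Ndufb10, Ndufs8 and Ndufa3, -0.12 for Ndufv2, Ndufb4 and Ndufs4, -0.11 for Ndufs5 and Ndufa7, -0.10 for Ndufc1, -0.099 for Ndufa6, -0.094 for Ndufa10, -0.090 for Ndufa13, Ndufb7 and Ndufb2, -0.087 for Ndufb5, -0.086 for Ndufa12, -0.083 for Ndufa11, -0.082 for Ndufa4, -0.078 for Ndufa1, -0.075 for Ndufa5, Ndufa9, Ndufs3 and Ndufb6, -0.069 for Ndufs6, -0.060 for Ndufa2, -0.045 for Ndufb11, -0.044 for Ndufb9. With the gene length offset they were -0.051 for Ndufc2, -0.036 for Ndufb3, -0.034 for Ndufb10, -0.031 for Ndufs8, -0.018 for Ndufa9, -0.017 for Ndufa10, -0.011 for Ndufa3, -0.0074 for Ndufa7, -0.0028 for Ndufa11, -0.0020 for Ndufa13. With scaling to the library total they were 0.025 for Ndufab1, 0.031 for Ndufv1, 0.047 for Ndufs7, 0.061 for Ndufa8, 0.064 for Ndufv3. Within the libraries led by mt-Co1 they were 0.018 for mt-Nd3, 0.020 for Ndufab1, 0.031 for Ndufs7, 0.047 for Ndufv3, 0.056 for Ndufa8, and within those led by Ttn -0.040 for Ndufb2, 0.0088 for Ndufab1, 0.021 for Ndufs1, 0.039 for Ndufs7, 0.040 for mt-Nd3, 0.044 for Ndufv1, 0.063 for Ndufv3, 0.072 for Ndufa8. With no filter on low counts they were 0.0014 for Ndufa8, 0.0055 for Ndufv3, and with mitochondrial genes removed 0.0013 for Ndufv3. With 1 animal left out at a time, the genes that turned at least once had these ranges of log2 change: Ndufb10 -0.069 to 0.062, Ndufa13 -0.050 to 0.097, Ndufa2 -0.0095 to 0.16, Ndufa4 -0.026 to 0.13, Ndufa8 -0.11 to 0.034, Ndufs7 -0.088 to 0.014, Ndufa5 -0.022 to 0.16, Ndufa1 -0.033 to 0.12, Ndufs6 -0.017 to 0.13, Ndufs8 -0.065 to 0.058, Ndufv2 -0.063 to 0.097, Ndufa3 -0.072 to 0.089, Ndufa10 -0.049 to 0.032, Ndufa9 -0.034 to 0.047, Ndufa11 -0.037 to 0.087, Ndufb3 -0.086 to 0.077, Ndufa12 -0.030 to 0.13, Ndufc2 -0.12 to 0.076, Ndufs5 -0.058 to 0.11, Ndufa6 -0.046 to 0.12, Ndufs3 -0.027 to 0.085, Ndufb6 -0.022 to 0.11, Ndufb8 -0.085 to 0.067, Ndufc1 -0.041 to 0.15, Ndufv3 -0.077 to 0.031, Ndufa7 -0.057 to 0.069, Ndufb7 -0.039 to 0.083, Ndufb4 -0.070 to 0.11, Ndufs4 -0.070 to 0.11, Ndufb5 -0.038 to 0.12, Ndufb2 -0.048 to 0.062, mt-Nd3 -0.21 to 0.0068.

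The replicate block, a term for the replicate number over the numbers both groups share, gave 66 genes higher and 50 lower, 116 in all, a median of 0.076 for the subunit genes and 35 of 38 above 0, with 0 called. Values that turned were 0.0089 for Ndufs7, 0.014 for Ndufv3, 0.015 for Ndufa8. Under it mt-Nd5 passed (-0.40, adjusted p 0.040) and mt-Nd4 did not (-0.33, adjusted p 0.066). The labels do not state that the numbers pair the animals. Deviations of same-numbered animals correlated at 0.0961, 0.0678, 0.153, -0.1, -0.194, -0.103 and 0.412, and 2 of 7 animals correlated best with their own number. Such correlations cannot tell whether same-numbered animals share a litter or a day.

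The log2 change of mt-Nd4 was below 0 in all alternatives that included it, with adjusted p from 0.0013 (DESeq2) to 0.48 (within the libraries led by Ttn). The log2 change of mt-Nd5 passed with DESeq2, at adjusted p 0.018, and that of mt-Nd2 with the gene length offset, at 0.046. Depth was no limit for the 38 genes, the lowest of which had 592 counts in a library. The number of animals and the spread between them set the precision.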

Other observations

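The pseudogenes named after complex I subunits were read at low levels in every library. Ndufab1-ps was at 15.7 ± 2.28 CPM in kidney disease (SD, n = 7) and 16.0 ± 1.98 CPM in wild type (SD, n = 8), and Ndufs6b at 4.74 ± 0.417 and 4.60 ± 0.540 CPM. Ndufa11b and Ndufb4c were lower still, with highest values of 3.21 and 2.84 CPM. Kidney disease 6 had the highest diseased value for all 4, 19.0 CPM for Ndufab1-ps and 5.65 CPM for Ndufs6b among them. Reads of these copies and of the subunit genes cannot be told apart with certainty from the counts. Of the 4, only Ndufa11b was not among the near-identical copies found.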
